A study of Sus scrofa with 11 samples.

Results

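HMGCS1, SQLE, FDFT1, FDPS, ACAT2, INSIG1, SC5D and IDI1 are genes of cholesterol synthesis and its control. They were chosen by name, with earlier results of these data known. Each was read by the probe sets to which the array's annotation gives that single symbol. Of the 8 names, 7 had a probe set, 9 probe sets in all, out of 6765 genes and 23999 probe sets tested. IDI1 had none under that symbol in the annotation used here and was dropped. LDL uptake has no gene among the names, and its genes are described from a separate list. The muscle was the *M. semimembranosus* of purebred Duroc gilts. The 5 LP pigs ate a diet with 128 g/kg crude protein and 7 g/kg lysine, and the 6 HP pigs ate one with 217 g/kg crude protein and 13 g/kg lysine. Both diets were wheat and soyabean based, of the same energy density and offered freely for 63 days, starting at about 10 weeks of age. Each pig had its own Affymetrix Porcine Genome array. The sources used here do not tie weight block, pen or slaughter date to single pigs, so these cannot be told apart from diet.

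Cells build cholesterol from acetyl-CoA. Thiolase and HMG-CoA synthase start the mevalonate pathway, FDPS makes farnesyl diphosphate, FDFT1 joins it into squalene and commits it to sterols, and SQLE oxidises squalene before the ring is closed and trimmed. Most of these enzymes are targets of SREBP transcription factors, which INSIG1 holds back in the endoplasmic reticulum when sterols are plentiful, while LDL uptake supplies the cell with cholesterol made elsewhere. Skeletal muscle is not the main site of synthesis, but muscle fibres and the fat cells between them both use the pathway.

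SQLE and ACAT2 were higher in LP muscle, SQLE by 1.70-fold and ACAT2 by 1.26-fold. The remaining 5 genes did not pass the test, and none of the 7 was lower at the threshold. The differences, LP minus HP on the log2 scale, ran from -0.36 for FDFT1 to 0.76 for SQLE. They lay above 0 in 5 of 7 genes with a median of 0.20, against a median of -0.04 over all 6765 genes, of which 42.5% lay above 0. A gene was called at an unadjusted limma p of 0.05 or less on its brightest probe set, the threshold the study used. By that rule 4.73% of all genes were called, 1.57% higher and 3.16% lower in LP, and among all probe sets it was 5.11%, or 1227. After Benjamini-Hochberg adjustment over all probe sets 0% passed an adjusted p of under 0.05, with 0.644 the smallest from limma, so no difference given here passed that correction. In no member did the levels of the 2 diets fail to overlap, which happened in 0.517% of all genes. All 7 brightest probe sets were above the highest negative control on all 11 arrays.

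**Figure D1:**
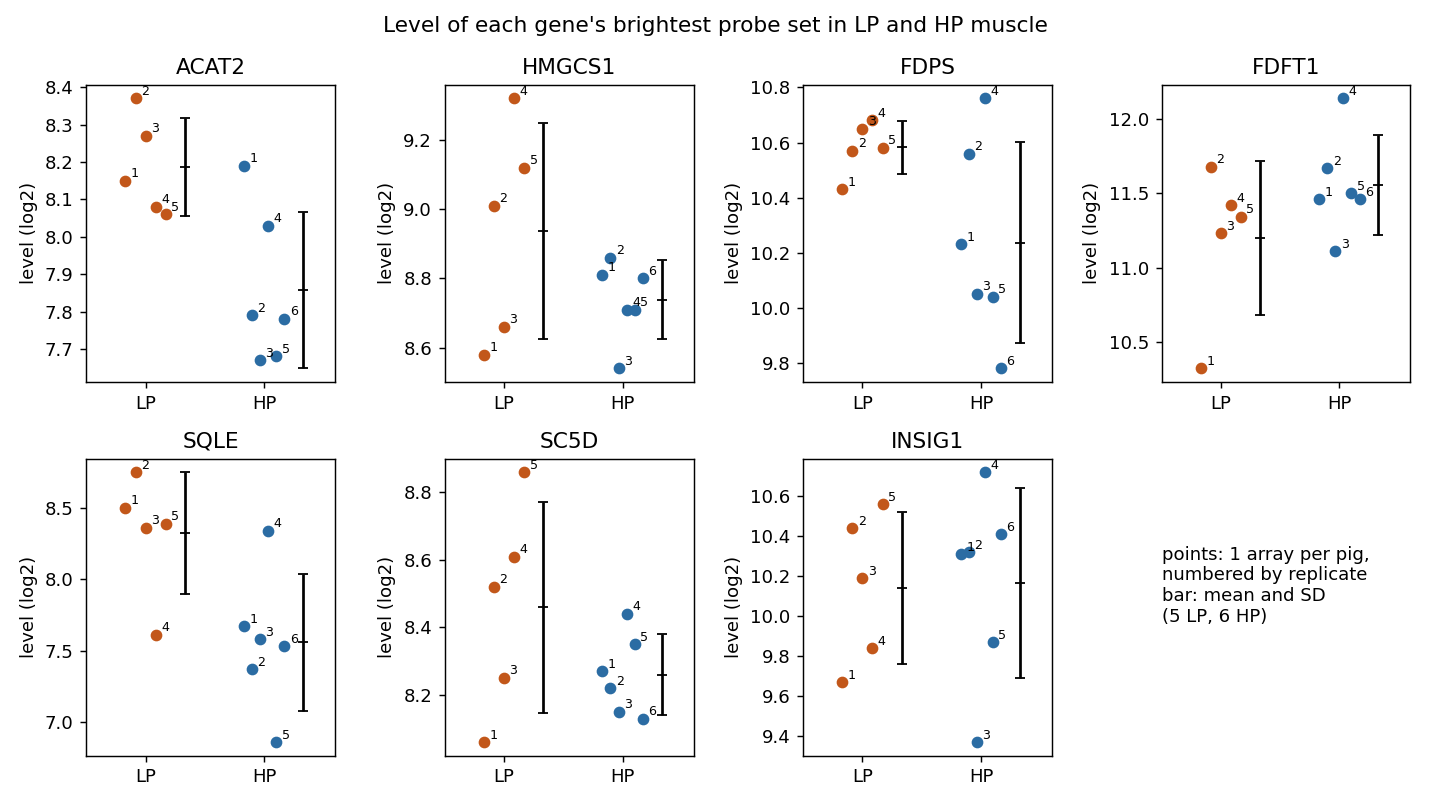
Expression level (log2) of the brightest probe set of each of the 7 genes, 1 point per pig numbered by replicate, with LP at the left and HP at the right of each panel and bars for the mean and SD (n = 5 LP, n = 6 HP). In the SQLE panel 4 of 5 LP pigs lie above the highest HP pig (8.34), and in the ACAT2 panel 2 of 5 lie above the highest HP pig (8.19). The vertical axes differ between genes.

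At the start of the pathway, ACAT2, the cytosolic thiolase that joins 2 acetyl-CoA molecules, was higher in LP. Its level was 8.15, 8.37, 8.27, 8.08 and 8.06 in LP replicates 1 to 5, against 8.19, 7.79, 7.67, 8.03, 7.68 and 7.78 in HP replicates 1 to 6. All 5 LP pigs stood above the HP mean, while HP 1 and HP 4 reached into the LP range. The difference was 0.33 on the log2 scale (SE 0.13, 95% interval 0.04 to 0.61, limma p = 0.0271, exact permutation p = 0.0238, adjusted p = 0.96 in limma). A dimmer ACAT2 probe set, also above the negative controls on all 11 arrays, gave -0.23 (SE 0.28, limma p = 0.429, exact p = 0.53), and the mean of both gave 0.05, which did not pass. The ACAT2 call was also lost without LP 2, LP 3, HP 3, HP 5 or HP 6, at differences of 0.28 to 0.31.

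HMGCS1, the cytosolic HMG-CoA synthase that takes the next step, averaged 8.94 ± 0.31 in LP and 8.74 ± 0.11 in HP (log2, SD, n = 5 and 6). LP 2, LP 4 and LP 5, at 9.01, 9.32 and 9.12, exceeded the highest HP pig (8.86), whereas LP 1 and LP 3 lay at 8.58 and 8.66. The difference of 0.20 did not pass (SE 0.15, limma p = 0.206, exact p = 0.177), and its interval ran from -0.13 to 0.53. It was 0.10 without LP 4 and 0.29 without LP 1. The LP pigs were the more spread of the 2 groups.

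FDPS, the farnesyl diphosphate synthase, was at 10.43, 10.57, 10.65, 10.68 and 10.58 in LP replicates 1 to 5, against 10.23, 10.56, 10.05, 10.76, 10.04 and 9.78 in HP replicates 1 to 6. All 5 LP pigs were above the HP mean and close together (SD 0.10), while HP 2 and HP 4 reached the LP levels and HP 6 was the lowest of all. The difference of 0.34 had a limma p of 0.0744 (SE 0.17, interval -0.04 to 0.73, exact p = 0.0671) and did not pass. It passed without HP 2, at 0.41, and without HP 4, at 0.45.

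Between HMGCS1 and FDPS lies isopentenyl diphosphate isomerase, IDI1. A probe set of the array has no single symbol in the array's annotation but carries the name IDI1 in the study's own annotation. It is no member here, and since the study picked it on the same pigs its direction is not independent evidence. It was at 2.87, 1.96, 3.41, 2.81 and 3.81 in LP, against 3.93, 3.62, 5.07, 4.0, 4.09 and 4.30 in HP. All 5 LP pigs were below the HP mean, and only LP 5 reached above the lowest HP pig. The difference was -1.20 (SE 0.34, limma p = 0.00464, exact p = 0.00649, adjusted p = 0.843 in limma), 2.30-fold lower in LP. These levels were near background, with 4 of 5 LP arrays and 6 of 6 HP arrays above the highest negative control.

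FDFT1, the squalene synthase, was the one enzyme of the 7 genes with a mean below that of HP. It was at 10.32, 11.68, 11.23, 11.42 and 11.34 in LP, against 11.46, 11.67, 11.11, 12.14, 11.50 and 11.46 in HP. LP 1 was the lowest and HP 4 the highest pig, and the other 9 lay between 11.11 and 11.68 in a mixed order. The difference of -0.36 did not pass (SE 0.25, interval -0.91 to 0.19, limma p = 0.181, exact p = 0.216). Without LP 1 it was -0.14.

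SQLE, the squalene epoxidase that follows FDFT1 and a rate-limiting enzyme of the pathway, had the largest difference of the 7. Its level was 8.50, 8.75, 8.36, 7.61 and 8.39 in LP replicates 1 to 5, against 7.67, 7.37, 7.58, 8.34, 6.86 and 7.53 in HP replicates 1 to 6. Of the LP pigs, only LP 4 lay below the highest HP pig, HP 4, and all 5 LP pigs lay above the HP mean. The difference was 0.76 (SE 0.27, interval 0.18 to 1.35, limma p = 0.0151, exact p = 0.0216, adjusted p = 0.918 in limma). It passed without each pig in turn, with differences of 0.62 to 0.94.

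SC5D, the desaturase that acts late in sterol trimming, averaged 8.46 ± 0.31 in LP and 8.26 ± 0.12 in HP (log2, SD, n = 5 and 6). As in HMGCS1, LP 2, LP 4 and LP 5 (8.52, 8.61 and 8.86) were above the highest HP pig (8.44), and LP 1 was the lowest of all at 8.06. The difference of 0.20 did not pass (SE 0.15, interval -0.12 to 0.53, limma p = 0.199, exact p = 0.165). It was 0.10 without LP 5 and 0.30 without LP 1.

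The other enzymes of the pathway were read from a list of names, of which 5 had a probe set. None passed, and all 5 differences, on the brightest probe set, were above 0. TM7SF2, a sterol reductase, had the smallest p, at 7.66, 7.40, 7.67, 7.39 and 7.28 in LP and a mean of 7.13 ± 0.29 in HP (SD, n = 6). All 5 LP pigs were above that mean, and the difference was 0.34 (SE 0.16, limma p = 0.0537, exact p = 0.0563). It passed without LP 5, HP 2 or HP 4, at 0.39 to 0.42. NSDHL, which removes a methyl group from the sterol nucleus together with MSMO1, differed by 0.32 (SE 0.17, limma p = 0.0941, exact p = 0.0909). A dimmer NSDHL probe set, above the negative controls on all 11 arrays, lay on the other side of 0 at -0.08 (SE 0.18, exact p = 0.669). MSMO1 differed by 0.21 (SE 0.12, exact p = 0.0714), HSD17B7 by 0.11 (SE 0.20, exact p = 0.571) and CYP51, the lanosterol demethylase, by 0.02 (SE 0.17, exact p = 0.907). With the 6 enzymes among the members, 10 of 11 sterol pathway enzymes had a difference above 0 on the brightest probe set, with a median of 0.21, and 2 of 11 were called. The enzymes share the 11 arrays and are not independent. The remaining names of the list are not analysed here.

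**Figure D2:**
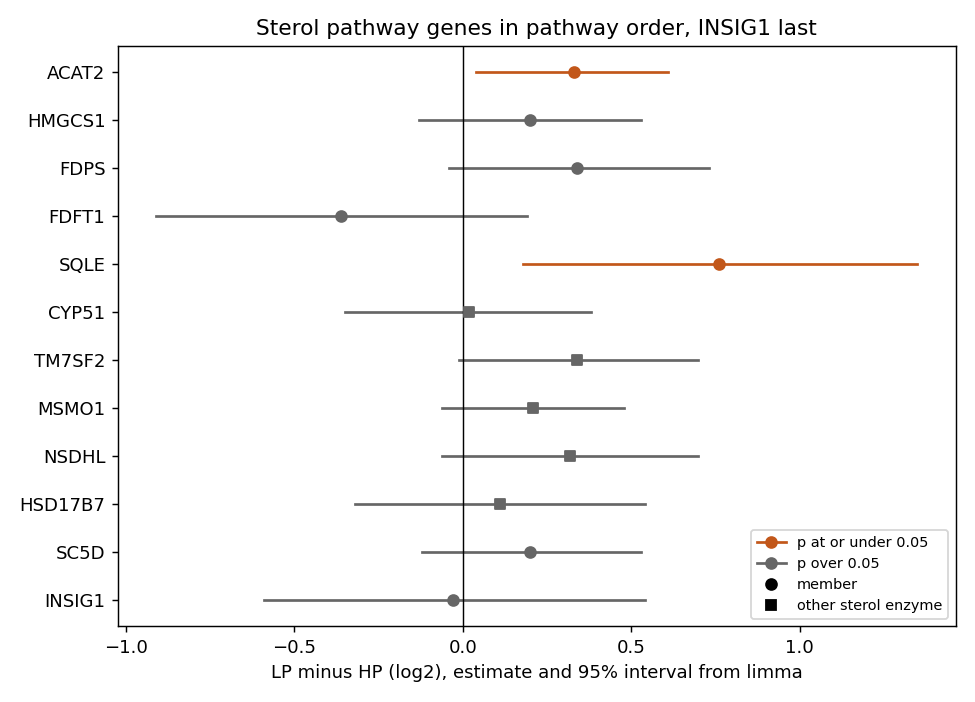
LP minus HP (log2) with the 95% interval from limma for the 11 sterol pathway enzymes in pathway order and INSIG1 at the bottom, circles for members, squares for other enzymes, and colour for a limma p of 0.05 or less. FDFT1 (-0.36) and INSIG1 (-0.03) are the 2 points left of 0, and the intervals of SQLE and ACAT2 are the ones that do not cross it.

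INSIG1, the sterol-regulated retention protein of the SREBP system, showed no difference past the threshold. Its level was 9.67, 10.44, 10.19, 9.84 and 10.56 in LP, against 10.31, 10.32, 9.37, 10.72, 9.87 and 10.41 in HP. The groups covered the same range, with HP 3 lowest and HP 4 highest. The difference was -0.03 (SE 0.25, limma p = 0.92, exact p = 0.926), and its interval of -0.59 to 0.54 leaves changes of either sign. A dimmer INSIG1 probe set was above the negative controls on 0 of 11 arrays and gives no level. Of 8 further sterol sensing genes none passed. SREBF1, which encodes a SREBP factor, had the smallest p with PGRMC1, a sterol-binding membrane protein. SREBF1 averaged 4.19 ± 1.01 in LP and 4.81 ± 0.63 in HP (SD, n = 5 and 6), a difference of -0.62 (SE 0.46, limma p = 0.206, exact p = 0.245), and was above the negative controls on 10 of 11 arrays. PGRMC1 differed by -0.17 (SE 0.13, limma p = 0.206, exact p = 0.165). SREBF2, the SREBP gene tied most closely to cholesterol synthesis, differed by 0.03 (SE 0.13).

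In the list of LDL uptake and lysosomal cholesterol release none of 9 measured genes passed, and the differences, from -0.13 to 0.13 with a median of 0.00, were small. VLDLR, a lipoprotein receptor, had the smallest p at -0.13 (SE 0.13, exact p = 0.26), followed by STARD3, a late endosomal cholesterol transporter, at 0.13 (SE 0.22, exact p = 0.569). None of 9 genes of cholesterol efflux, esterification and oxysterols passed, with CYP27A1, the sterol 27-hydroxylase, at 0.31 (exact p = 0.255) and APOA1, the main HDL protein, at 0.15 (exact p = 0.364). None of 5 genes of the isoprenoid branch, which draws on the FDPS product, passed, with NUS1 at 0.20 (exact p = 0.175) and RABGGTB at -0.17 (exact p = 0.188). Of 7 genes of thiolase and ketone body metabolism none passed, and 5 lay below 0. The trifunctional protein genes HADHA and HADHB were lowest, at -0.33 (exact p = 0.0693) and -0.30 (exact p = 0.0779).

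The genes of fatty acid synthesis, which answer to the same SREBP family, held 2 that were higher and 1 that was lower in LP of 9 measured. SCD, the main stearoyl-CoA desaturase, was at 9.28, 11.59, 9.16, 10.53 and 12.32 in LP and averaged 8.74 ± 0.98 in HP (SD, n = 6), a difference of 1.84 (SE 0.66, limma p = 0.0174, exact p = 0.0195). FASN, the fatty acid synthase, differed by 1.42 (SE 0.57, limma p = 0.0311, exact p = 0.0346). SCD5, a further desaturase, fell by 0.38 on the log2 scale (SE 0.17, limma p = 0.0415, exact p = 0.0433), a call lost without any 1 of LP 1, LP 3, LP 5, HP 1, HP 2, HP 3, HP 4 or HP 6. The FASN value came from 1 of 4 probe sets, above the negative controls on 10 of 11 arrays, and the mean of all its probe sets gave 0.09, which did not pass. The other FASN probe sets, at 0.46, -0.99 and -0.50, were at or near background. They were above the negative controls on 1, 0 and 6 of 11 arrays. The FASN call was also lost without LP 2, LP 4, LP 5 or HP 2. SQLE was highest in LP 2 among the LP pigs and SCD in LP 5.

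The samples are whole muscle, in which fewer cells of a type and less RNA per cell cannot be told apart. All 11 measured skeletal muscle markers were above the negative controls on all arrays and none passed, with 10 of 11 differences below 0 and a median of -0.22. Of 8 liver markers, 7 were above the controls on 5 or fewer arrays. Of 9 adipocyte markers 1 passed on its brightest probe set, DGAT2, which makes triacylglycerol, at 0.78 (SE 0.27, limma p = 0.0156, exact p = 0.026). LEP, the leptin gene, was at 0.74 (SE 0.34, limma p = 0.0533, exact p = 0.0887) on its brightest probe set. A dimmer LEP probe set passed, at 6.48, 7.83, 6.2, 6.81 and 7.24 in LP, against 5.45, 4.6, 3.62, 3.2, -2.95 and 5.71 in HP, with no overlap (difference 3.64, SE 1.34, limma p = 0.0203, exact p = 0.00866, adjusted p = 0.947 in limma). It was above the negative controls on 5 of 5 LP and 4 of 6 HP arrays. ADIPOQ, an adipocyte hormone, was at 0.22 (SE 0.41). On the brightest probe sets 4 of the 9 adipocyte markers lay below 0, and the median was 0.01. The mean level of the 9 adipocyte markers ranged over 7.05 to 7.47 in LP and 6.63 to 7.60 in HP, with all but CEBPA above the negative controls on all arrays. None of 8 macrophage markers passed, with 7 of 8 below 0 and a median of -0.26, and none of 8 endothelial markers passed, with 6 of 8 below 0 and a median of -0.08. The part of these cell types in the SQLE and ACAT2 differences was not tested.

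From pig to pig, LP 2 stood above the HP mean in 7 of 7 genes and LP 5 in 6 of 7, whereas LP 1 did so in 3 of 7 and was the lowest LP pig in HMGCS1, FDFT1, FDPS, INSIG1 and SC5D. Among HP pigs, HP 4 was the highest in SQLE, FDFT1, FDPS, INSIG1 and SC5D, and HP 3 and HP 5 were each above the HP mean in 1 of 7. HP 4 was also the array with the highest mean of the hybridisation spike-ins, 12.22, in a range of 11.30 to 12.22. The spike-ins differed by -0.26 between LP and HP (exact p = 0.186). The actin probe sets at the 3' end minus those at the 5' end, a measure of RNA length and amplification, differed by -0.43 (exact p = 0.123). The measure averaged 5.53 ± 0.35 in LP and 5.96 ± 0.42 in HP (log2, SD). It was lowest in LP 1 (5.12) and highest in HP 2 and HP 4 (6.46 each).

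Correlations were taken over the deviations of the 11 pigs from their diet mean. Of 21 pairs of members 17 had a Pearson r above 0, with a median of 0.38, against a median of 0.326 over all pairs of genes of at least median level. The highest were HMGCS1 with SC5D (r = 0.743, permutation p = 0.0094, Spearman's rho = 0.655, p = 0.0339) and FDFT1 with INSIG1 (r = 0.732, permutation p = 0.00934, Spearman's rho = 0.718, p = 0.0161). The lowest was HMGCS1 with SQLE (r = -0.358, permutation p = 0.277, Spearman's rho = -0.282, p = 0.403). In all 35 relations were tested, these 21 and those of each gene with the spike-ins and with actin, and none passed after Benjamini-Hochberg adjustment. Both high pairs had an adjusted p of 0.0822 for r and 0.119 for rho. Without the 2 pigs farthest from the median, r was 0.717 for HMGCS1 with SC5D, 0.626 for FDFT1 with INSIG1 and -0.0515 for HMGCS1 with SQLE. Within the 6 HP pigs r was 0.0396 for HMGCS1 with SC5D and 0.842 for FDFT1 with INSIG1. The 5 LP pigs were too few for a correlation of their own.

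SQLE with ACAT2 gave r = 0.612 (permutation p = 0.0475, Spearman's rho = 0.673, p = 0.0283). This did not pass after adjustment (adjusted p = 0.151 for r and 0.119 for rho). Without the 2 farthest pigs r was 0.578, and within HP it was 0.618. With the actin measure r was 0.00547 for SQLE and 0.0924 for ACAT2 over 11 pigs, -0.305 and -0.0889 without HP 4 and LP 1, and 0.417 and 0.391 within HP. HMGCS1, FDFT1, FDPS, INSIG1 and SC5D gave r of 0.636 to 0.732 with actin, 0.486 to 0.754 without HP 4 and LP 1, and 0.525 to 0.891 within HP. FDPS followed the spike-ins most closely (r = 0.829, permutation p = 0.00213, Spearman's rho = 0.809, p = 0.00403, adjusted p = 0.0745 for r and 0.102 for rho). It kept r = 0.726 without HP 2 and HP 4 and r = 0.834 within HP. With the actin measure as a covariate, a fit chosen after the values were seen, SQLE, ACAT2, FDPS, HMGCS1 and SC5D, 5 of 7 genes, passed, all higher in LP, where 6.5% of all genes passed. In that fit FDPS was at 0.57, HMGCS1 at 0.37 and SC5D at 0.36, while FDFT1 was at -0.03, and the median over all genes was 0.06. Under a spike-in covariate FDFT1 was at -0.15.

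**Figure D3:**
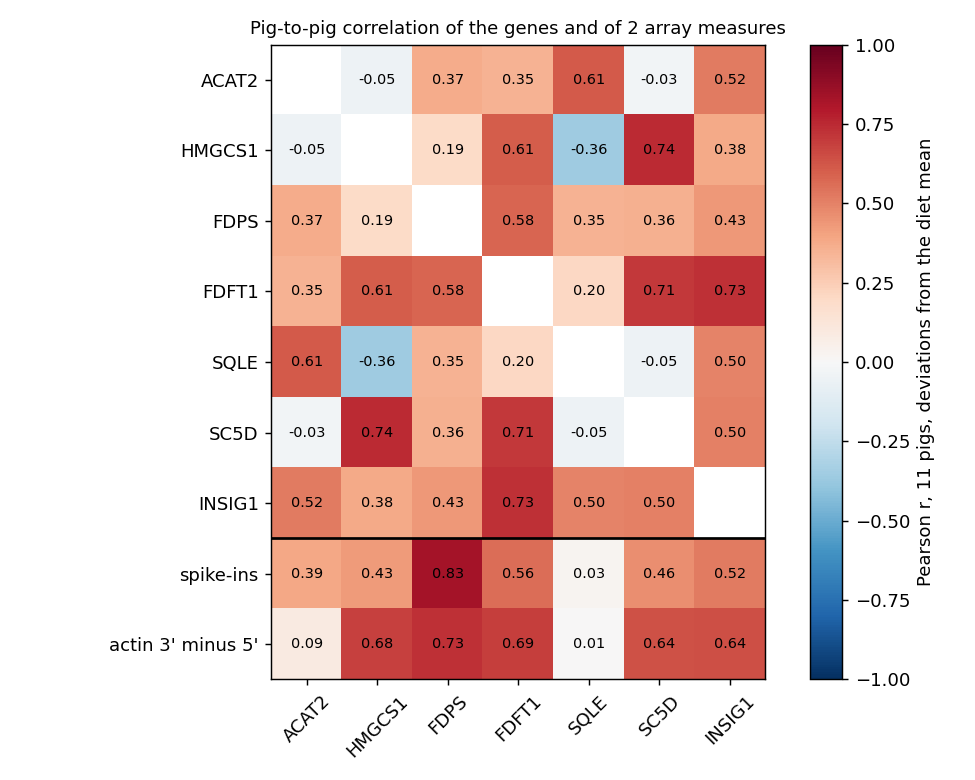
Pearson r between the 7 genes (deviations of 11 pigs from their diet mean) and, under the line, of each gene with the spike-in mean and the 3' minus 5' signal of actin on the same array. The SQLE and ACAT2 columns are near 0 in the actin row (0.01 and 0.09), while the other 5 genes lie between 0.64 and 0.73.

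The 5 genes whose deviations were most like the mean of the members, of 3379 searched, were METTL21A (r = 0.941), RALA (r = 0.935), TFDP2 (r = 0.923), BTG1 (r = 0.922) and FBXO32 (r = 0.91), over 11 pigs. None of them passed between the diets, at -0.17 to -0.24. Their own r with the spike-ins was 0.544 to 0.801.

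Subtracting the level of a gene from that of another on the same array removes any shift common to both probe sets. The sizes of such differences depend on the probes and only their shift between diets is read. This comparison was chosen after the values were seen and covered all 21 pairs. SQLE minus FDFT1, enzymes of successive steps, was -2.88 ± 0.71 in LP and -4.0 ± 0.40 in HP (SD, n = 5 and 6), a shift of 1.12 (SE 0.36, exact p = 0.00866). FDFT1 minus FDPS shifted by -0.70 (SE 0.22, exact p = 0.00649), and FDFT1 minus ACAT2 by -0.69 (exact p = 0.013). Of the 6 pairs with an exact p at or under 0.05, FDFT1 was in 5, and all 6 had an adjusted p of 0.0682 over the 21 pairs. FDFT1 had the lowest and SQLE the highest difference among the members, so these shifts in part restate that order. LP 1, the lowest pig in FDFT1, carried part of these shifts, and without it SQLE minus FDFT1 shifted by 0.86 (exact p = 0.0238) and FDFT1 minus FDPS by -0.52 (exact p = 0.019). These shifts were taken without the actin covariate, under which the FDFT1 difference itself was -0.03. HMGCS1 minus SC5D shifted by 0.00 (exact p = 0.959).

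**Figure D4:**
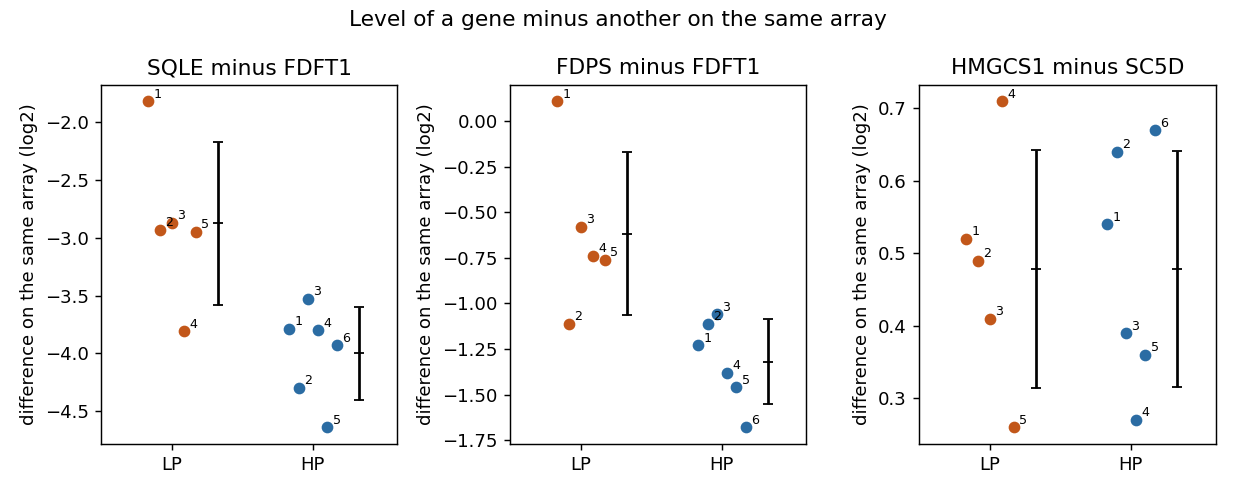
Level of a gene minus that of another on the same array (log2), 1 point per pig numbered by replicate, LP at the left and HP at the right, with mean and SD (n = 5 LP, n = 6 HP), for SQLE minus FDFT1, FDPS minus FDFT1 and HMGCS1 minus SC5D. LP 1 is the highest pig in both panels with FDFT1, and the groups have the same mean in the HMGCS1 minus SC5D panel.

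Across 22 alternative settings SQLE and ACAT2 stayed above 0 in every one, and ACAT2 lost its call in 7 and SQLE in 1, the fit with a block for the replicate number. FDPS passed in 8, while FDFT1 stayed below 0 and INSIG1 changed sign in 11 without passing in any.

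**Figure D5:**
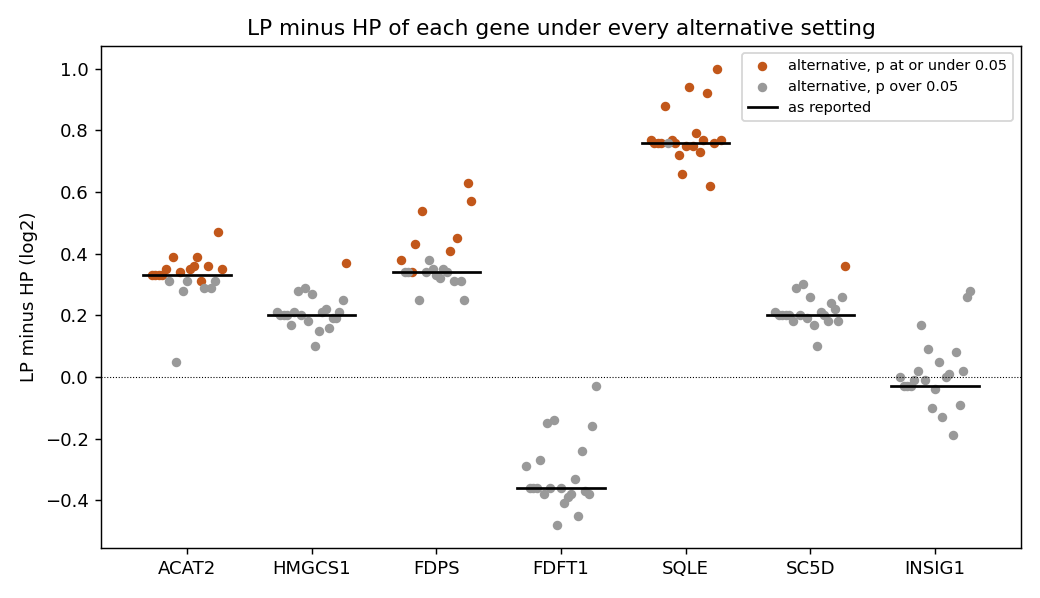
LP minus HP (log2) of each gene under its alternative settings, 1 point per setting, coloured where the limma p was 0.05 or less, with a line at the value as reported. The exact permutation test, which shares the reported difference, has no point. SQLE stays between 0.62 and 1.0, FDPS is above the threshold of p in some settings and below it in others, and INSIG1 lies on both sides of 0.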

How the data were processed

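Expression in the *M. semimembranosus* of 11 gilts, 5 LP and 6 HP by their labels, was measured on 1 Affymetrix array each. The values deposited by the authors are log2 expression levels per probe set. Per the methods the authors used R, Bioconductor and puma, and how the levels were background corrected and normalised is not given in the sources used here. Every array has a median of 6.72, and the values were used as deposited. The probe-level files, the qPCR and the carcass measures were not used here. That there are 5 and 6 arrays limits the precision, and p-values set the difference between diets against the spread between these pigs.

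The table holds 24123 probe sets, of which 124 are controls and 23999 entered the fit. The platform annotation gave a single symbol to 10069 of them, several to 198 and none to 13732. Each of 6765 genes was read by its brightest probe set, that of the highest mean over the arrays. The gene IDs of all 7 members carry the same symbol in RefSeq. LP minus HP was fitted in R 4.3.3 with limma 3.58.1 (constant prior, two-sided), with calls at an unadjusted p of 0.05 or less in place of puma's P-like values, and Benjamini-Hochberg adjustment over all probe sets. Differences of single values were tested by a two-sided exact permutation test (462 splits of the 11 pigs), where the smallest possible p is 0.00216. Correlations had 100000 permutations. A level above the highest of 23 negative controls of its array counted as above background. The fit was tested on simulated data.

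The members and the 12 other lists were chosen with earlier results of these data known. The lists are mevalonate and sterol enzymes, isoprenoid branch, sterol sensing, LDL uptake, efflux, ketone body enzymes, fatty acid synthesis, and skeletal muscle, adipocyte, macrophage, endothelial and liver markers. Named were all members, the genes of each list that passed or else up to 2 with the smallest p, and the 5 genes most like the members. The skeletal muscle, macrophage, endothelial and liver markers, of which none passed, were left unnamed and given as lists. CYP51, MSMO1, HSD17B7, SREBF2, ADIPOQ, CEBPA, LEP and the dimmer probe sets of NSDHL and LEP were named after their values were seen. The alternatives were quantile normalization, leaving out dim probe sets, a floor at the 20th percentile, array weights, a trended robust prior, a spike-in covariate, a block for the replicate number, the mean of all probe sets and leaving out each array. The exact permutation test, where run, was counted as an alternative too. Leaving out HP 1, HP 2 and HP 4 together, the actin covariate and the differences within arrays were added after the values were seen.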

Additional observations from a re-analysis of the deposited data

How the results depend on the processing

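The median difference of the 7 genes was 0.15 to 0.36 in all 21 alternatives that gave one, and SQLE was 0.62 to 1.0 in 22. The number of genes called, 2 as reported, was 1 with the mean of all probe sets and 5 with the actin covariate (5 probe sets too). It was 1 to 3 when each array was left out in turn, and 1 to 3 for probe sets. It was 1 without LP 2, LP 3, HP 3, HP 5 or HP 6, each time through the loss of ACAT2. FDPS passed in 8 of 22 alternatives, with 0.54 under the spike-in covariate, under which the median of all genes was 0.04 and not -0.04. It was 0.63 without HP 1, HP 2 and HP 4 together. INSIG1, near 0, changed sign with quantile normalization (0.00), the block (0.02), the spike-in covariate (0.17), the actin covariate (0.28) and without HP 1, HP 2 and HP 4 (0.26), and ran over -0.19 to 0.09 when single arrays were left out. It did not pass in any of the 22. FDFT1 kept its sign in 22, from -0.48 to -0.03, and did not pass. The IDI1-named probe set kept its call in all 19 alternatives with a value, from -1.51 to -0.95. TM7SF2 passed in 11 of 22.

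The deviations of same-numbered LP and HP arrays correlated at -0.147 to 0.0936, and no LP array was closest to its own number. The study blocked the gilts on initial weight, and weak correlations cannot show whether the numbers stand for those blocks. With the number as a replicate block, 0 genes and 0 probe sets of the members were called, with SQLE at 0.76 and ACAT2 at 0.31. Causes of these changes were not tested. With 5 and 6 arrays, the 95% intervals of the differences of FDFT1 and INSIG1 span over 1 log2 unit. The 0 probe sets at an adjusted p under 0.05 became 1 to 3 without HP 2, HP 5, LP 5 or HP 1, HP 2 and HP 4 together.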
